A study of Mus musculus with 6 samples.

Results

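The control left ventricle was described from 3 of the 6 libraries of the series, those of the group CONT, across all 55487 genes listed in the files. The members were chosen by group label alone. The group CONT consisted of male C57BL/6 wild-type mice from Jackson lab, 8 weeks old, which received an isocaloric control diet for 10 days and then 1 oral gavage of maltose-dextrin. The left ventricles were taken 9 h after the gavage. The other 3 libraries came from mice on a 5% ethanol diet with an ethanol gavage and were not analysed here. Messenger RNA libraries were made with the NuGEN Universal mRNA Plus kit from 1000 ng of total RNA and sequenced as paired reads of 75 bases. Abundance was given as TPM, the share of a gene among all transcripts of a library after its reads are divided by its length, and values are mean ± SD over the 3 libraries unless each library is given. Diet, gavage and harvest time were shared by all 3 libraries, so the values describe a gavaged mouse at 1 time of day. The labels do not say that each library was a separate mouse, so the spread between libraries may be in part technical. With 3 libraries the smallest exact two-sided p of a sign-flip test is 0.25, so levels, ranges and orders are given without tests.

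The left ventricle is the chamber that drives blood into the systemic circulation. Its cardiomyocytes are filled with sarcomeres, in which myosin thick filaments pull on actin thin filaments when calcium binds troponin, and with mitochondria that supply the ATP for this work, mostly from fatty acids. The adult mouse ventricle is known for its fast alpha myosin heavy chain, its ventricular myosin light chains and a set of heart and muscle isoforms of metabolic enzymes. Endothelial cells, fibroblasts, pericytes and macrophages lie between the muscle cells. In whole tissue, fewer cells of a type and less RNA per cell cannot be told apart.

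The defining markers of cardiomyocytes were abundant in every library. Myh6, the alpha myosin heavy chain, stood at 14949.8, 15865 and 14346 TPM in replicates 1, 2 and 3. Tnni3, the cardiac inhibitory troponin, stood at 5298, 5819 and 5529.9 TPM. Ckm, the muscle creatine kinase, stood at 1429, 1525 and 1428 TPM, and Actn2, the actinin that crosslinks actin at the Z-disc, at 948, 946 and 955 TPM. For all 4 the highest library was at most 1.11 times the lowest. The Y-linked genes of the male list were all above 1 TPM on average (Eif2s3y at 18.2 ± 2.53 TPM), whereas Xist, the RNA of the inactive X chromosome, was at 0.0233 ± 0.0115 TPM.

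The libraries held 37762233, 28838386 and 33696699 expected counts. CONT replicate 3 stood apart from the other two. Across the 12024 genes that averaged 1 TPM or more, called detected here, Pearson's r of log2 TPM was 0.972 between replicates 1 and 2, 0.948 between 1 and 3 and 0.947 between 2 and 3, as a description across genes. A chi-square statistic of the counts gave 17.1, 72.3 and 51.4 per degree of freedom for the same pairs, so no 2 libraries agreed within counting error. Replicates 1, 2 and 3 were the highest library for 23.2%, 16.1% and 60.7% of the 12024 detected genes and the lowest for 34.9%, 43.4% and 21.7%, and counts of genes that were highest or lowest in 1 library are to be read against these shares. Genes that spread over 1.5-fold are mostly given library by library.

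Of the listed genes, 26793 were above 0 in at least 1 library, and the 12024 detected genes made up 21.7% of the list. Detection held in each of the 3 libraries separately for 11251 genes. Among nuclear protein-coding genes 10822 of 21890 (49.4%) were detected, 4017 reached 10 TPM, 504 reached 100 TPM and 44 reached 1000 TPM. The 10 most abundant of them held 19.02 ± 0.908% of nuclear protein-coding TPM, the first 100 held 42.9 ± 2.01% and the first 1000 held 75.7 ± 1.25%. Only 163 genes were needed for 50% of this TPM and 3306 for 90%. The ranking was shared between libraries: 18 of the 20 and 85 of the 100 most abundant nuclear protein-coding genes of the means were so in all 3 libraries.

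The mitochondrial genome, whose 13 protein genes encode core subunits of the respiratory chain and ATP synthase, held 36.0 ± 1.02% of TPM as annotated, against 38.2 ± 1.57% for nuclear protein-coding genes. A further 24.2 ± 2.21% was assigned to 6 unprocessed pseudogenes that lie side by side on chromosome 1 (24611535 to 24616197, minus strand, mm10), which are nuclear copies of mt-Co1, mt-Co2, mt-Atp6, mt-Co3, mt-Nd3 and mt-Nd4. The copy with the highest value, Gm28661, was listed at 81271, 78068 and 69563 TPM and was the first gene of the whole table, while its mitochondrial counterpart mt-Co2 was listed at 647, 742 and 559 TPM. Over the aligned bases Gm28661 (681 bases), Gm10925 (678), Gm28437 (783) and Gm28439 (876) were identical to mt-Co2, mt-Atp6, mt-Co3 and mt-Nd4. Gm28438 differed from mt-Nd3 by 1 base of 345, T3C, and Gm29216 differed from the 3' part of mt-Co1 by 6 bases of 492, at its start: T1056A, C1057T, A1059G, A1060G, C1062A and A1066T. Positions count from the first base of the mitochondrial gene, whose base is written first. The first 75 bases of mt-Co2 and its copy are shown because they cannot be told apart by a 75-base read, and the first 40 of mt-Nd3 and its copy because they hold the 1 difference, in capitals (transcript sequences of GENCODE vM21, 5' to 3').
mt-Co2: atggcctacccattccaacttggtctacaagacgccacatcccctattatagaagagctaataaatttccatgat
Gm28661: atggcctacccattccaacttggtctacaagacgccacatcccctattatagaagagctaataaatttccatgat
mt-Nd3: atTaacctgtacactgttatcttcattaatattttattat
Gm28438: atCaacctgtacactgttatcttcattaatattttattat

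Because such sequences are shared, the split between a mitochondrial gene and its copy was not a measurement of either one. mt-Co3, cytochrome oxidase subunit III, was at 32554, 20118 and 15592 TPM in replicates 1, 2 and 3, while its identical copy Gm28437 was at 36109.9, 47503 and 42464 TPM, a 2.09-fold spread in the first and 1.32-fold in the second. Moving the counts of each copy to its mitochondrial gene gave 58.6 ± 1.35% of TPM to the mitochondrial genome. On that merged scale mt-Co1 stood at 82076 ± 2223 TPM and mt-Co2 at 79594 ± 6823 TPM; mt-Co2 was the higher of the pair in replicates 1 and 2, and its mean without replicate 3 was 83408 against 81068 TPM. They were followed by mt-Atp8 with 75397 ± 4648, mt-Atp6 with 68682 ± 4733 and mt-Co3 with 67277 ± 6493 TPM. The subunits of cytochrome oxidase (mt-Co1 to mt-Co3) and of ATP synthase (mt-Atp6, mt-Atp8) thus took the first 5 places. The cytochrome b gene mt-Cytb followed with 41639 ± 304 merged TPM, and the complex I genes ranged from mt-Nd1 with 38171 ± 1174 to mt-Nd5 with 10742 ± 935 merged TPM. mt-Nd6 was at 21762 ± 710.3 merged TPM; it is the 1 protein gene on the other strand of the mitochondrial genome, and whether counting used strand is not given in the sources used here. mt-Atp8 is only 204 bases long, with an effective length of 130 bases, so its TPM turns on a small divisor. As a share of expected counts, with no division by length, the mitochondrial genome and the 6 copies together held 44.5 ± 2.79%, below the 54.3 ± 2.87% of nuclear protein-coding genes.

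Among nuclear protein-coding genes, contractile proteins filled the first places. Myh6 (chromosome 14, 54941921 to 54966927, minus strand) was first at 15054 ± 765 TPM. Myl2, the ventricular regulatory light chain of myosin, stood at 12613, 12932 and 11938 TPM in the 3 libraries, and Mb, the oxygen-binding myoglobin, at 10903, 11293 and 10396 TPM. Places 4 to 8 were also sarcomeric: Tpm1, alpha tropomyosin, at 6647 ± 424 TPM, Tnnt2, cardiac troponin T, at 5889 ± 755, Tnni3 at 5549 ± 261, Myl3, the ventricular essential light chain, at 4983 ± 348, and Actc1, cardiac actin, at 4530.1 ± 430.3 TPM. Fabp3, the muscle fatty acid-binding protein (3585 ± 156 TPM), and Tnnc1, the calcium-binding troponin C (3039 ± 157 TPM), completed the first 10. Neighbours in this order were not all separated: the range of Tnnt2 (5224, 5733 and 6709 TPM) overlapped those of Tpm1 (6232, 6629 and 7079 TPM) and Tnni3, while every value of Myh6 was above every value of Myl2, and every value of Myl2 above every value of Mb.

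Places 11 to 20 belonged mostly to energy supply. Atp5b, the catalytic beta subunit of ATP synthase, stood at 2918 ± 68.9 TPM, Slc25a4, which exchanges ADP for ATP across the inner mitochondrial membrane, at 2689 ± 279.8 TPM, and Atp5g3, a membrane-ring subunit of ATP synthase, at 1826 ± 100.3 TPM. The cytochrome oxidase subunits Cox6a2, Cox7b and Cox4i1 stood at 2311 ± 126, 2057 ± 85.3 and 1952 ± 141 TPM. The remaining 4 were Fth1, the ferritin heavy chain that stores iron (2137 ± 203 TPM), Cryab, a small heat shock protein (1937 ± 120.4 TPM), Pln, the brake on the calcium pump (1839 ± 448 TPM), and Tcap, which caps titin at the Z-disc (1700.2 ± 213 TPM). Pln had the widest spread of the 20, with 1530.1, 1634 and 2353 TPM in replicates 1, 2 and 3, the last above the other two. Shared sequence limits several of the 20 genes, and Pln, Mb and Fabp3 most. Of the 75-base words of the main Pln transcript 55.6% also occur in Gm47644, of those of Mb 32.4% in the overlapping Gm49540 and of those of Fabp3 24.3% in a pseudogene. Smaller shares included 17.1% of the words of Cryab in Hspb2 and 11.6% of those of Cox4i1 in Emc8.

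**Figure D1:**
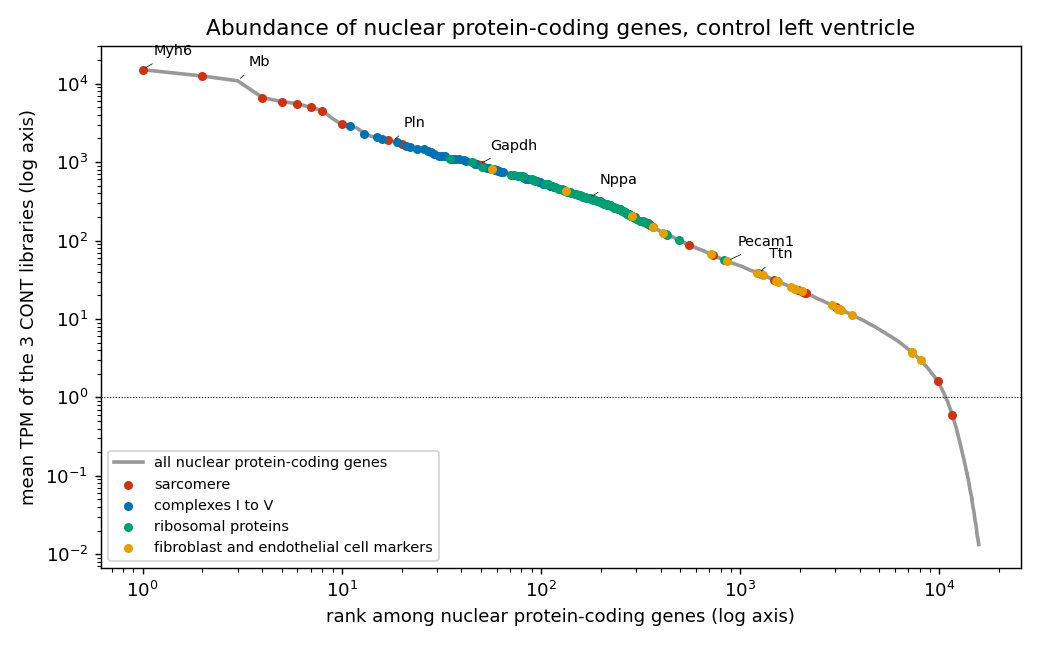
Mean TPM over the 3 CONT libraries against rank for nuclear protein-coding genes, both on log axes, with members of 4 groups as coloured points on the line of all genes and a dotted line at 1 TPM. Sarcomere genes (red) hold the first places from Myh6 at 15054 TPM, subunits of complexes I to V (blue) and ribosomal proteins (green) follow, mostly above 100 TPM, and most fibroblast and endothelial markers (orange) lie between 10 and 100 TPM.

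The rank of Myh6 turned on its length. The files divided its reads by an effective length of 1309, 1365 and 2061 bases in replicates 1, 2 and 3, whereas its principal transcript has 6113 bases in 39 exons. At the length of the principal transcript Myh6 was at 4267 TPM and seventh, and Myl2 was first at 9778 TPM, followed by Mb. The expected counts, which use no length, were higher for Myh6 (778321, 656919 and 958989) than for Myl2 (292933, 228937 and 226248) in every library. Of the 4017 genes with at least 10 TPM, 578 had a principal transcript more than 2 times as long as the effective length in use, and the median ratio was 1.15. The effective length itself differed between libraries by more than 0.3 on the log2 scale for 250 of 4014 genes, and it was longest in replicate 3 for 164 of them. Of the 75-base words of Myh6, 15.5% also occur in Myh7, its neighbour on chromosome 14.

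Among detected nuclear protein-coding genes, the abundant ones had short transcripts. The median principal transcript was 942.5 bases for the 44 genes of at least 1000 TPM, 1410.5 bases for the 460 genes between 100 and 1000 TPM, 2436 bases for the 3513 genes between 10 and 100 TPM and 3340 bases for the 6805 genes between 1 and 10 TPM. The median number of exons was 5, 6, 9 and 10 in the same order. The 11068 genes below 1 TPM did not continue this order, with medians of 2201 bases and 5 exons. Spearman's rho between mean TPM and principal transcript length was -0.29 across the 4017 genes of at least 10 TPM, as a description over genes that share the same libraries and the same length correction.

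Short sequence words were found at different shares in the promoters of the abundant classes. RefSeq promoter windows (GRCm38.p6, 250 bases before to 50 after the gene start) were used for the 13894 nuclear protein-coding symbols with exactly 1 window. Among them the word CTANNNNTAG, with any base at N, was found on either strand in 5 of 22 sarcomere genes (22.7%). It was found in 3.01% of the 6747 detected genes and 3.43% of all. This word is looser than the core to which MEF2 factors of muscle bind. CATTCC, the muscle word bound by TEAD factors, was found in 9 of the 22 (40.9%), against 11.6% of detected genes and 13.1% of all. CCGGAAG, the core of ETS and GABP sites, was in 21 of 51 ribosomal protein promoters (41.2%), 16 of 60 promoters of nuclear subunits of complexes I to V (26.7%) and none of the 22 sarcomere promoters, against 20.4% of detected genes, 4.55% of the 7147 genes below 1 TPM and 12.2% of all. AAGATGGC, the core of YY1 sites, was in 8 of the 60 promoters of complexes I to V (13.3%), against 5.50% of detected genes and 3.41% of all. It was in 4 of the 51 promoters of ribosomal proteins (7.84%), near the share of detected genes. TATAAA on the gene strand was in 4 of the 22 sarcomere promoters (18.2%), 4.48% of detected genes, 14.0% of genes below 1 TPM and 9.40% of all. AGATAA, which GATA factors bind, was in 3 of the 22 (13.6%), against 5.80% of detected genes and 9.93% of all. These matches are letters in a window and were not tested as sites. Shown are the promoter of Myh6 and, for each of 3 words, a class member that holds it. Each was the most abundant such member after 1 chromosome was left out of the choice. They were Myoz2 of the Z-disc at 607 ± 102 TPM (CTANNNNTAG), the complex I subunit Ndufb8 at 833 ± 45.3 TPM (AAGATGGC) and the ribosomal protein Rpl27a at 475 ± 6.72 TPM (CCGGAAG). Capitals mark every match of the 6 words, on either strand except for TATAAA, and none of the 6 words contains another.
Myh6, chr14:54966558-54966857, minus strand: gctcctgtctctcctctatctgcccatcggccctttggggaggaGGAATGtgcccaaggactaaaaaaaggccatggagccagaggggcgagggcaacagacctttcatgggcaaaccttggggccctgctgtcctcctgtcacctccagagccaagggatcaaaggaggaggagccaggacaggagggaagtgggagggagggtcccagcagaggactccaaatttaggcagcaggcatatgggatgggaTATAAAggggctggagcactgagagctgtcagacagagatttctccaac
Myoz2, chr3:123034938-123035237, minus strand: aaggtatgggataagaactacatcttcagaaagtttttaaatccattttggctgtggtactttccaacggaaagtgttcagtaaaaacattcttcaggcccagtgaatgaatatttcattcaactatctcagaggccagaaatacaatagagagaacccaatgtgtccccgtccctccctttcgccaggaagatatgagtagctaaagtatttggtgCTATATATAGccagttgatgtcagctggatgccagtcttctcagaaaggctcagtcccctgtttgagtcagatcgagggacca
Ndufb8, chr19:44555393-44555692, minus strand: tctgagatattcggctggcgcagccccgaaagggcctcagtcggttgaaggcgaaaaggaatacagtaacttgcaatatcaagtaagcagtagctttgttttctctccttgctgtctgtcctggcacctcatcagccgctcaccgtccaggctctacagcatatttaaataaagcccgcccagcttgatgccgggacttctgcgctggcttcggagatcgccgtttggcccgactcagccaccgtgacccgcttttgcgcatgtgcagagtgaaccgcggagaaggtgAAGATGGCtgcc
Rpl27a, chr7:109518945-109519244, plus strand: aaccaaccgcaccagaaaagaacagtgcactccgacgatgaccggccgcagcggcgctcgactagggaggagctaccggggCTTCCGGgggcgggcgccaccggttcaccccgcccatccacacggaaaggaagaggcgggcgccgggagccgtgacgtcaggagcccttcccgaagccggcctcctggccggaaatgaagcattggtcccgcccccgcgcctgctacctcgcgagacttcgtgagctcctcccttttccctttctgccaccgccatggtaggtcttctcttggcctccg

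Gene classes differed in both abundance and steadiness. The thick filament list, 9 genes, summed to 33579, 34904 and 33162 TPM in replicates 1, 2 and 3 and held 8.51% of the TPM left after the mitochondrial genes and their copies were set aside. Mybpc3, the myosin-binding protein C that regulates cross-bridges, stood at 408, 391 and 637 TPM, far below Myh6, and Mylk3, the cardiac kinase of the regulatory light chain, at 67.7, 71.7 and 126 TPM. The thin filament list of 13 genes summed to 24660.3, 25974 and 27737 TPM. Of its 13 members 12 were detected, the exception being Tnni1, the slow skeletal and fetal troponin I, at 0.29, 0.21 and 1.27 TPM. Lmod2 and Tmod1, which set thin filament length at its pointed end, stood at 132, 136 and 227 TPM and at 48.7, 51.3 and 96.2 TPM. Mybpc3, Mylk3, Lmod2 and Tmod1 were all highest in replicate 3. The sum of the thin filament list was also highest there, whereas that of the thick filament list was not. Replicate 3 was the highest for 4 of 9 thick filament and 7 of 12 detected thin filament genes, against 60.7% of all detected genes.

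All 20 genes of the titin and Z-disc list were detected, and together they summed to 8886, 8543 and 10434 TPM. After Cryab, Tcap and Actn2 came Csrp3, a mechanosensor at the Z-disc (907 ± 106 TPM), Fhl2 (692, 547 and 1104 TPM in the 3 libraries) and Myoz2, which links calcineurin to actinin (607 ± 102 TPM). Ttn, the giant spring protein titin, was at 33.9, 33.7 and 48.4 TPM, a value per length, and thus far below Tcap in number of transcripts. In this list 19 of 20 genes were highest in replicate 3, against 60.7% of all detected genes, with a median log2 difference of 0.55 from the mean of the other two, and 6 of 20 spread over 2-fold, against 8.08% of all detected genes. Actn2 was at 946 to 955 TPM, but its expected counts were 45138, 36996 and 58774 in replicates 1, 2 and 3, highest in replicate 3, and the effective length they were divided by was 1197, 1289 and 1897 bases.

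Nuclear subunits of the respiratory chain were all detected: 36 of 36 for complex I, 4 of 4 for complex II, 9 of 9 for complex III, 14 of 14 for complex IV and 16 of 16 for complex V. Their sums were 16156 ± 1077, 1381 ± 179.8, 6976 ± 426, 17131 ± 1253 and 17261 ± 723 TPM. The median member stood at 416 TPM in complex I, which takes electrons from NADH, and at 1248 TPM in complex IV, cytochrome oxidase, which passes them to oxygen. The leading members were Ndufb9 in complex I (952 ± 33.4 TPM), Sdhb in complex II (563 ± 26.9 TPM), Uqcrq in complex III (1381 ± 214 TPM), Cox6a2 in complex IV and Atp5b in complex V. In complexes I, III, IV and V most members were lowest in replicate 3, for 25 of 36, 6 of 9, 10 of 14 and 10 of 16 genes, against 21.7% of all detected genes. None of the 79 subunits spread over 2-fold, against 3.48% of nuclear protein-coding genes between 100 and 1000 TPM and none of the 44 above. Complex II, whose Sdha transcript (226, 289.6 and 429.9 TPM in the 3 libraries) carries the flavin subunit, had 3 of its 4 members highest in replicate 3.

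Of the fuel lists, which differ in size, that of fatty acids had the highest summed TPM, which is not a measure of fuel use. The 25 genes of fatty acid uptake and beta-oxidation summed to 10079 ± 669 TPM and were all detected. Fabp3 alone held 35.6% of that sum. The median member stood at 201 TPM in this list, 169 TPM in glucose uptake and glycolysis and 276 TPM in the tricarboxylic acid cycle. Etfb, which carries electrons from acyl-CoA dehydrogenases, stood at 1033 ± 106 TPM, Lpl, the lipase that frees fatty acids from lipoproteins, at 736 ± 132, and Hadhb and Hadha, the subunits of the trifunctional protein, at 602 ± 73.8 and 459 ± 95.4 TPM. Cd36, the fatty acid transporter of the plasma membrane, stood at 332 ± 30.1 TPM. The 20 genes of glucose uptake and glycolysis summed to 6536 ± 451 TPM, with Aldoa, the muscle aldolase, at 1491 ± 131 TPM, Gapdh at 934 ± 21.3 TPM and Ldhb, the heart lactate dehydrogenase, at 854 ± 47.7 TPM; Aldoc, the brain aldolase, was the 1 member not detected, at 0.12 ± 0.0346 TPM. The 18 tricarboxylic acid cycle genes summed to 5003, 5738 and 6738 TPM, led by Idh2 (1016 ± 88.6 TPM) and Mdh2 (753 ± 82.3 TPM), and 15 of 18 were highest in replicate 3 (background 60.7%). Replicate 3 was also the highest for 17 of the 19 detected genes of glucose uptake and glycolysis and 18 of the 25 of the fatty acid list. Ckm and Ckmt2, the cytosolic and mitochondrial creatine kinases that shuttle phosphate to the myofibrils, stood at 1461 ± 55.7 and 1069.5 ± 50.7 TPM, whereas Ckmt1, the ubiquitous mitochondrial form, was at 0.15 ± 0.0458 TPM and Gatm and Gamt, which make creatine, at 0.82 ± 0.201 and 3.903 ± 0.692 TPM.

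Calcium cycling genes summed to 4389, 4580.5 and 6422 TPM over 23 genes, of which 22 were detected. Pln was first, and Atp2a2, the calcium pump of the sarcoplasmic reticulum that Pln inhibits, stood at 911, 976 and 1767 TPM in replicates 1, 2 and 3. S100a1, a calcium sensor, stood at 675 ± 35.2 TPM, Casq2, the store's buffer, at 139, 156 and 259 TPM, and Ryr2, the release channel, at 28.7, 31.4 and 78.9 TPM. Replicate 3 was the highest for 15 of 22, near the 60.7% of all detected genes, and the median log2 difference from the other two was 0.61.

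Ion channels were far below the sarcomere. The 26 genes of the action potential list summed to 254, 248 and 400.4 TPM, and 23 were detected. Kcnk3, a background potassium channel, led with 30.7, 32.7 and 52.9 TPM in the 3 libraries, followed by Kcnip2, the partner of the transient outward channels (35.6 ± 6 TPM), and Kcnj11, the pore of the ATP-sensitive channel (21.7, 21.98 and 44.8 TPM). Cacna1c, the L-type calcium channel, stood at 23.2, 18.9 and 36.5 TPM. In this list 10 of 23 detected genes spread over 2-fold, against 8.08% of all detected genes, and 18 of 23 were highest in replicate 3, against 60.7%. At the intercalated disc, where cardiomyocytes join end to end, Des, the intermediate filament desmin, led with 496 ± 101 TPM, Gja1, the main ventricular connexin, stood at 62.4 ± 7.06 TPM and Dsp, desmoplakin, at 42.3, 42.6 and 87.8 TPM. Of the adrenergic list, Gnas, the stimulatory G protein subunit, stood at 507 ± 26.8 TPM and the receptor Adrb1 at 2.87, 3 and 3.78 TPM.

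Ribosomal proteins had the smallest median spread of the 31 gene classes. All 82 cytosolic ribosomal protein genes were detected and summed to 28703, 28782 and 28231 TPM, with a median ratio of highest to lowest library of 1.08, against 1.32 over all detected genes. None of the 82 spread over 2-fold, against 8.08% of all detected genes and 3.48% of nuclear protein-coding genes between 100 and 1000 TPM. Among the most abundant were Rplp1, a protein of the ribosomal stalk (990.4 ± 13.1 TPM), and Rps24, of the small subunit (878 ± 6.43 TPM). The 31 proteasome genes summed to 1854 ± 105 TPM, led by the catalytic subunit Psmb6 at 154 ± 2.17 TPM. Again none spread over 2-fold, against 3.84% of nuclear protein-coding genes between 10 and 100 TPM. Chaperones summed to 5032 ± 753 TPM, of which Cryab held the largest share; the constitutive Hspa8 stood at 600.4 ± 121 TPM and the heat-inducible Hspa1a and Hspa1b at 1.76 ± 0.153 and 1.46 ± 0.2603 TPM. Among antioxidant enzymes Gpx4, which reduces lipid peroxides, led with 561 ± 61.03 TPM, and Sod1 and Sod2, the cytosolic and mitochondrial superoxide dismutases, stood at 454 ± 30.1 and 353 ± 26.3 TPM.

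Regulatory genes were low but mostly detected, with 25 of 26 cardiac transcription factors at or above 1 TPM. Hopx led with 119 ± 15.4 TPM, followed by the nuclear receptor Esrra (48.5 ± 4.59 TPM) and the homeobox factor Nkx2-5 (28.7 ± 1.52 TPM). Gata4 stood at 21.1 ± 5.004 TPM and Mef2d at 23.8 ± 3.04 TPM, whereas Hand1, a factor of the embryonic left ventricle, was the 1 member not detected, at 0.09 ± 0.156 TPM. Among clock genes, harvested at a single time, Dbp led with 113, 69.8 and 54.8 TPM and Tef followed with 50.9 ± 7.08 TPM. Arntl and Npas2, which are among the activators of the loop, were at 0.447 ± 0.0586 and 0.323 ± 0.153 TPM. Immediate early genes summed to 354, 281 and 264 TPM, led by Jund at 44.5 ± 3.23 TPM, and Fosb was at 0.247 ± 0.0462 TPM. Of 20 cell cycle and mitosis genes 5 were detected: Pcna at 13.8 ± 2.01 TPM and the replication licensing genes Mcm6, Mcm3, Mcm2 and Mcm5 between 1.29 and 2.66 TPM; Mki67, the marker of cycling cells, was at 0.56 ± 0.226 TPM.

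As summed lists, interferon-stimulated genes and collagens were not highest in replicate 3. The interferon list summed to 152, 174 and 103 TPM in replicates 1, 2 and 3, and 17 of its 18 detected members were lowest in replicate 3, against 21.7% of all detected genes. Bst2, which tethers budding virus, stood at 24.9, 25.8 and 12.1 TPM and Irf7, a master regulator of the response, at 9.69, 12.5 and 5.22 TPM; 9 of the 18 spread over 2-fold, against 8.08% of all detected genes. Collagens summed to 249, 195 and 172 TPM, and 13 of 15 detected ones were highest in replicate 1, against 23.2% of all detected genes. Col4a1 and Col4a2, the basement membrane collagens, led with 57.9 ± 13.5 and 34.4 ± 6.41 TPM, above the fibrillar Col3a1 at 24.1 ± 4.34 TPM and Col1a1 at 11.2 ± 2.19 TPM. Of the other matrix genes, Mgp, the inhibitor of calcification, stood at 323 ± 29.1 TPM and the proteoglycan Dcn at 204 ± 22.1 TPM.

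**Figure D2:**
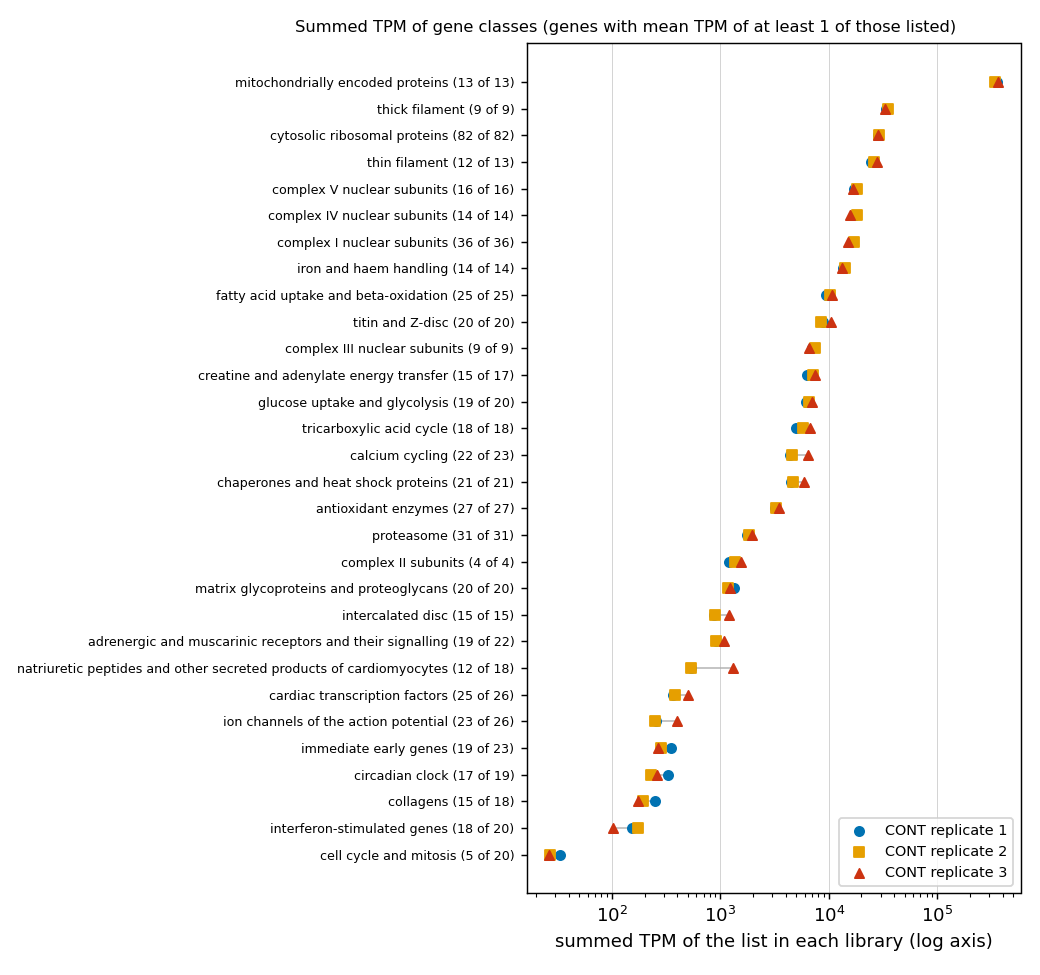
Summed TPM of 30 gene classes in each CONT library on a log axis, with the number of detected genes of those found in brackets and 1 symbol per library. The 3 symbols nearly coincide for ribosomal proteins (28231 to 28782 TPM) and separate most for natriuretic peptides and other secreted products, where replicate 3 lies at 1316 TPM and the other two at 531 and 535 TPM.

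Related genes were compared as 30 pairs of TPM ratios, each with 0.1 TPM added. The gene written first, in most pairs a heart or striated muscle form, was higher in all 3 libraries for 28 of the 30 pairs. In several pairs the second gene is itself a form of skeletal, fetal or atrial muscle. The largest ratio was that of Tnni3 over Tnni1, 13.30 ± 1.17 on the log2 scale, and Atp2a2 exceeded Atp2a1, the skeletal pump, by 11.22 ± 0.35. Tnni1 and Atp2a1 averaged below 1 TPM, and with a pseudocount of 1 these ratios were 11.83 and 9.71. Myh6 exceeded Myh7, the slow beta myosin of the mouse fetus and of larger hearts, by 5.43 ± 0.10, with Myh7 at 373, 343 and 332 TPM. Actc1 exceeded Acta1, skeletal actin, by 4.89 ± 0.85, the spread coming from Acta1 at 279.8, 100.2 and 126 TPM. Among metabolic pairs the SD ran from 0.01 for Slc25a4 over Slc25a5 to 0.39 for Slc2a4 over Slc2a1: Slc25a4 over Slc25a5 was 4.15 ± 0.01, Cox6a2 over Cox6a1 4.26 ± 0.07, Ldhb over Ldha 1.63 ± 0.08, Ckm over Ckb 5.93 ± 0.18 and Pgam2 over Pgam1 4.35 ± 0.26, all on the log2 scale.

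The heart forms of cytochrome oxidase were not equally dominant. Cox6a2 was 19.2 times its liver-type partner, Cox8b 7.86 times Cox8a and Cox7a1 2.99 times Cox7a2, as ratios of mean TPM. Rpl3l, the striated muscle version of ribosomal protein L3, exceeded the general Rpl3 by 0.80 ± 0.19 on the log2 scale (174 ± 4.83 against 101 ± 13.8 TPM), with 78.5% of the 75-base words of Rpl3 shared with a pseudogene. For Slc2a4, the insulin-sensitive glucose transporter, over Slc2a1 the difference was 4.66 ± 0.39, and for Cpt1b, the muscle form of the gate for fatty acid entry into mitochondria, over Cpt1a 4.48 ± 0.18. A readthrough transcript, Gm44502, shares 92.1% of the words of Cpt1b.

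A few pairs went against the pattern or were undecided. Eef1a1, the general elongation factor, was above its muscle and neuron form Eef1a2 in all 3 libraries (547, 519 and 555 against 342, 354 and 505 TPM), a log2 ratio of Eef1a2 over Eef1a1 of -0.46 ± 0.28. Kcnj2, the main inward rectifier, was above Kcnj12 in 2 of 3 libraries; Kcnj12 was at 2.26, 2.08 and 8.26 TPM and was the higher one in replicate 3. Without replicate 2 the mean log2 difference of this pair turned to -0.04, and without replicate 3 it was 0.79. Hk2, the insulin-responsive hexokinase, was above Hk1 by 1.30 ± 0.17, but by -0.14 when both were divided by the length of their principal transcripts. Nppa over Nppb, the natriuretic peptides, ranged from 0.07 to 3.70 on the log2 scale: Nppb was at 78.4, 77.1 and 66.3 TPM, and Nppa at 94.4, 81.1 and 864 TPM. The pairs with an atrial partner were also wide, Myl2 over Myl7 at 8.86 ± 4.83, Myl3 over Myl4 at 7.53 ± 4.04 and Pln over Sln at 9.86 ± 3.96. Without replicate 3 they were 11.23, 9.65 and 12.003, and Nppa over Nppb was 0.17.

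**Figure D3:**
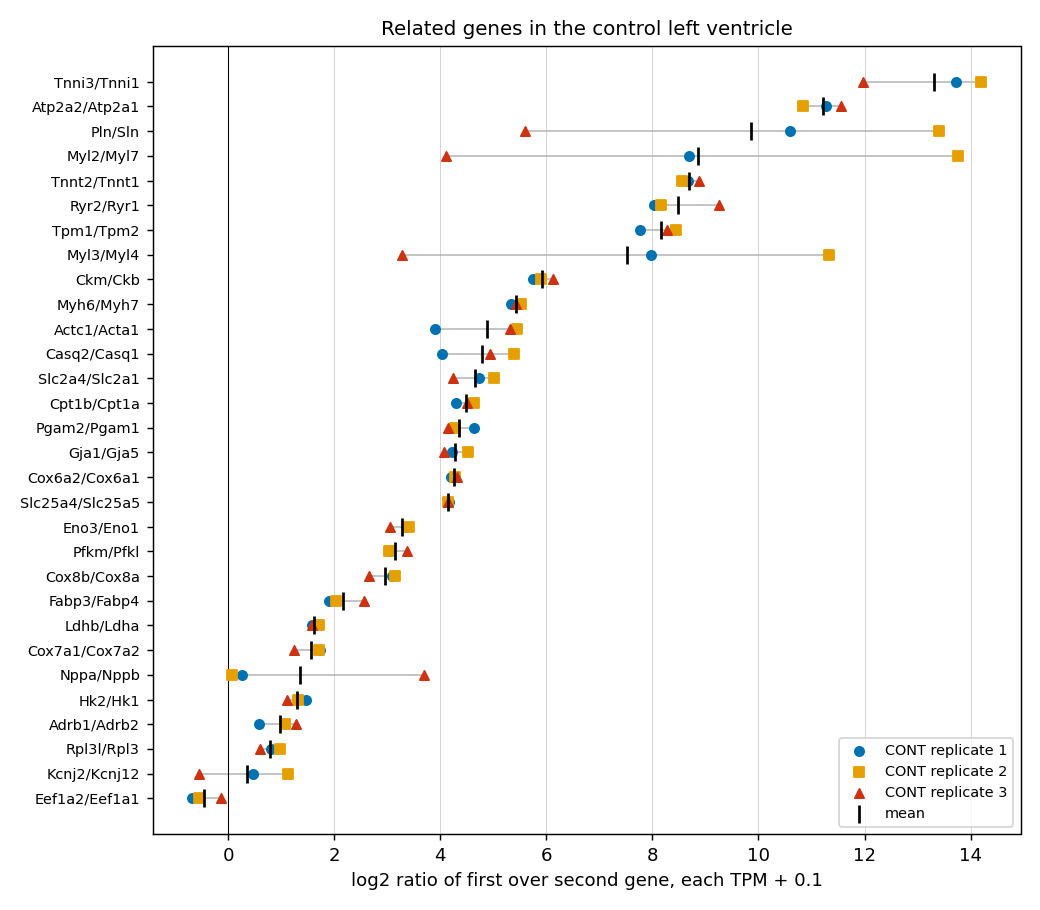
The log2 ratio of the first over the second gene of each of the 30 pairs, after adding 0.1 TPM, with 1 symbol per CONT library, a grey line from lowest to highest and a black tick at the mean. In 28 pairs all 3 symbols lie right of 0; Pln/Sln, Myl2/Myl7, Myl3/Myl4 and Nppa/Nppb, whose lines are the longest, have replicate 3 at an end.

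Cardiomyocyte markers had the highest summed level of the marker lists in every library, and those of endothelial cells, fibroblasts, pericytes with smooth muscle, and macrophages each summed to over 100 TPM in every library. So did the lists of atrial cardiomyocytes, red cells and skeletal muscle, which are given further below. The 16 cardiomyocyte markers summed to 70303, 73645 and 72107 TPM. Endothelial markers summed to 1587, 1528 and 1063 TPM, largely from Fabp4, the fatty acid-binding protein of capillary endothelium and fat (951, 914 and 581 TPM); Pecam1 and Cdh5, which join endothelial cells, stood at 54.9 ± 7.31 and 67.02 ± 20.6 TPM, and 9 of 12 markers were lowest in replicate 3, against 21.7% of all detected genes. Fibroblast markers summed to 803, 702 and 857 TPM, led by Gsn, an actin-severing protein not limited to fibroblasts (426 ± 51.96 TPM), and Dcn, with Tcf21 and Pdgfra, more specific to the lineage, at 3.78 ± 0.0608 and 3.73 ± 0.376 TPM. Pericyte and smooth muscle markers summed to 361, 313 and 273 TPM, led by the pericyte gene Rgs5 at 95.03 ± 15.99 TPM. Macrophage markers summed to 134, 124 and 153 TPM, with the complement genes C1qa, C1qb and C1qc at 41.8 ± 2.19, 33.6 ± 4.19 and 28.2 ± 2.97 TPM. Among the 5 lists described here the order cardiomyocyte, endothelial, fibroblast, pericyte and macrophage was the same in all 3 libraries.

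Markers of lymphocytes and granulocytes were low. None of the 10 T and NK cell markers reached 1 TPM, and their sum was 2.01, 1.93 and 2.04 TPM. Of the B and plasma cell list, Ighm (3.01 ± 0.852 TPM) and Igkc (1.5 ± 0.662 TPM) were detected. The neutrophil list rested on S100a8 and S100a9 and went from 1.75 TPM in replicate 1 to 14.5 TPM in replicate 3. The skeletal muscle list summed to 313, 141 and 189 TPM, mostly from Acta1 at 279.8, 100.2 and 126 TPM. Only Acta1, Myl1, Tnni2 and Mylpf of this list were detected, and the fast skeletal myosins Myh4, Myh1 and Myh2 were at 0, 0.01 and 0.0133 TPM. The hepatocyte list summed to 5.61, 4.91 and 16.7 TPM; Cyp2e1 and Ahsg, at 2.05, 0.51 and 8.73 TPM and at 2.19, 1.21 and 7.25 TPM, were highest in replicate 3, Apoa2 was at 1.11, 1.61 and 0.56 TPM, and Alb, albumin, at 0.01, 0.67 and 0.06 TPM.

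Among marker lists above 20 TPM on average, those of atrial cardiomyocytes, adipocytes and red cells differed most between libraries. The 12 atrial markers summed to 176, 115 and 2243 TPM in replicates 1, 2 and 3, and all 11 detected ones were highest in replicate 3, against 60.7% of all detected genes. Myl7, the atrial regulatory light chain, stood at 30.3, 0.83 and 688 TPM, Myl4, its essential partner, at 20.2, 1.94 and 471 TPM, Sln, the atrial regulator of the calcium pump, at 0.89, 0.05 and 48.8 TPM and Nppa at 94.4, 81.1 and 864 TPM. Without replicate 3 the atrial sum lay between 115 and 176 TPM, or 0.156% to 0.2505% of the cardiomyocyte sum, against 3.11% in replicate 3. Myl7 was at 0.240%, 0.00642% and 5.76% of Myl2 in replicates 1, 2 and 3. Whether atrial tissue entered the sample of replicate 3 was not tested. Globin transcripts of red cells ran differently: Hba-a2 stood at 52.2, 276 and 220.1 TPM and Hbb-bs at 48.1, 283 and 174 TPM, lowest in replicate 1 and highest in replicate 2, with reads shared between near-identical globin copies. Adipocyte markers summed to 12.7, 1.22 and 50 TPM, with Adipoq, the fat hormone adiponectin, at 1.19, 0.07 and 6.33 TPM, Car3 at 5.2, 0.62 and 21.3 TPM and Ucp1 at 0 in every library. The mesothelial list summed to 29.1, 29.1 and 55.5 TPM, carried by C3 at 25.8, 24.7 and 42.5 TPM; Upk3b was at 0.05, 0.15 and 3.96 TPM, whereas Wt1 was lowest in replicate 3, at 2.96, 3.71 and 2.04 TPM.

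**Figure D4:**
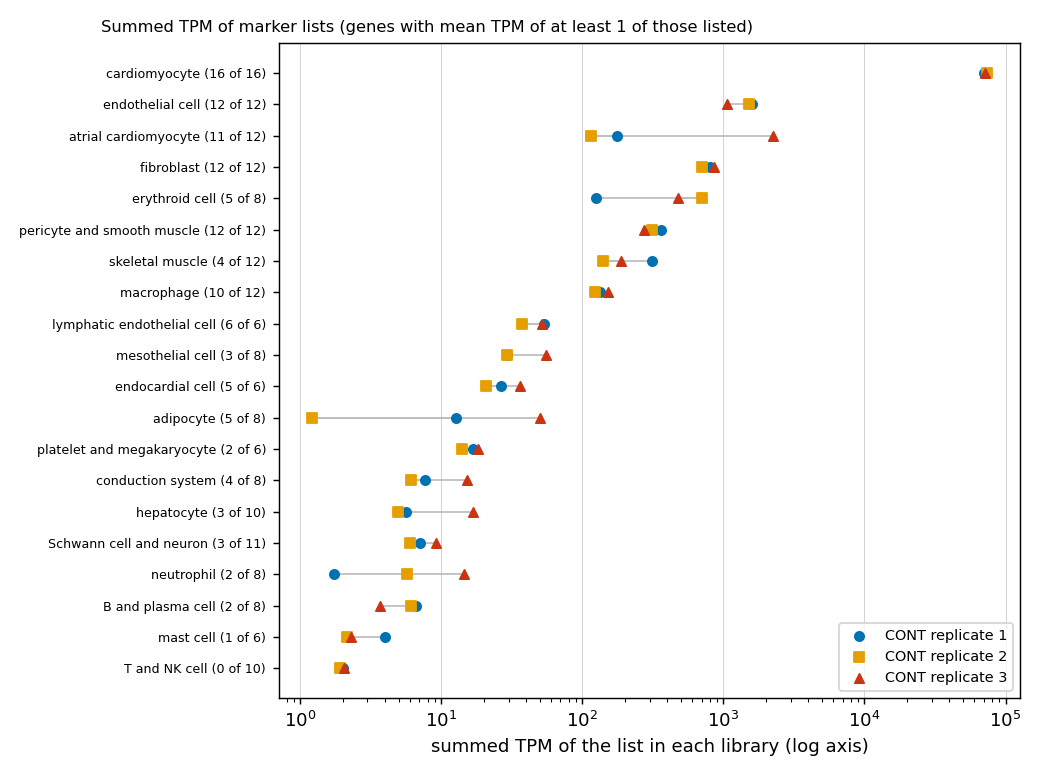
Summed TPM of 20 marker lists in each CONT library on a log axis, with the number of detected markers of those found in brackets and 1 symbol per library joined by a grey line. Cardiomyocyte, fibroblast and macrophage lists are narrow, while the atrial list (115 to 2243 TPM), the adipocyte list (1.22 to 50 TPM) and the erythroid list (125 to 701 TPM) span the widest ranges among the lists above 20 TPM on average.

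Beyond protein-coding genes, 423 of 9940 processed pseudogenes, 172 of 5849 long intergenic RNAs, 182 of 2959 antisense genes and 65 of 2202 miRNA genes were detected. Apart from the chromosome 1 copies these were minor: processed pseudogenes summed to 7718 ± 293 TPM and long intergenic RNAs to 1998 ± 76.9 TPM. Neat1, the scaffold of paraspeckles, stood at 309.9, 307 and 312 TPM, with Malat1, a nuclear speckle RNA, at 84.5, 76.6 and 91.9 TPM. Mhrt, an antisense transcript of the Myh7 locus, was at 113, 103 and 123 TPM and cannot be told from its sense partner without strand. The mitochondrial ribosomal RNAs mt-Rnr2 and mt-Rnr1 were at 3240.4 ± 572 and 2736 ± 572 TPM, which in a messenger RNA library is no measure of their level in the tissue. Miat was at 0 in every library. Of the pseudogenes, Gm10221 was at 1167 ± 122 TPM with all of its 75-base words shared with Atp5l, an ATP synthase subunit.

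The spread between the 3 libraries was described by the ratio of the highest to the lowest TPM, each with 0.1 added. It was above 2-fold for 972 of 12024 detected genes (8.08%), with a median of 1.32. The highest library was replicate 3 for 590 of the 972, replicate 1 for 205 and replicate 2 for 177. Without replicate 3, 244 genes passed 2-fold; without replicate 1 or 2 it was 670 or 656, and each of these counts compares 2 libraries rather than 3. Between replicates 1 and 2 alone, replicate 2 was higher past 2-fold for 99 genes (0.823%) and lower for 159 (1.32%), whereas replicate 3 was higher than replicate 1 for 430 (3.58%) and lower for 205 (1.70%). The common biological coefficient of variation fitted by edgeR to the counts of 14657 genes was 0.188, and 0.112 without replicate 3.

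The spread narrowed with abundance. The median coefficient of variation was 15.8% for nuclear protein-coding genes between 1 and 10 TPM, 12.5% between 10 and 100 TPM, 8.64% between 100 and 1000 TPM and 7.11% at 1000 TPM and above. Over 2-fold spread was seen for 502 of 6805 (7.38%), 135 of 3513 (3.84%), 16 of 460 (3.48%) and none of 44 genes in the same order. At 10 TPM and above, 151 of 4017 genes (3.76%) passed 2-fold.

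Replicate 3 differed from the other two according to effective length, here averaged over the 3 libraries. Among genes of at least 10 TPM its median log2 difference from the mean of replicates 1 and 2 was -0.14 for 148 genes with effective lengths up to 500 bases, -0.01 between 500 and 1000 bases, 0.17 between 1000 and 2000 bases, 0.34 between 2000 and 4000 bases and 0.46 for 289 genes above 4000 bases. Over all 4017 genes the median was 0.17. The difference between replicates 2 and 1 stayed between -0.03 and 0.03 in the same bins. For the lists, principal transcripts are given instead, whose length can differ from the effective length of the bins. The list medians of the difference also cover members from 1 TPM, whereas the bins start at 10 TPM. The median member was at 5.04 TPM for collagens and 5.83 TPM for the interferon list. The median principal transcript was 4738 bases for ion channels, 2556 for calcium cycling and 3504 for titin and Z-disc, against 939.5 for complex I and 869 for ribosomal proteins. The atrial markers in replicate 3, with a median log2 difference of 4.39, lay far beyond the length bins, and several lists of long principal transcripts did not follow the bins. The median log2 difference of replicate 3 was -0.21 for collagens (median transcript 6024 bases), -0.00098 for other matrix genes (5593 bases), -0.55 for endothelial markers (3639 bases), -0.22 for pericyte markers (3741 bases) and -0.80 for the interferon list (2586 bases). The part of RNA quality, fragment size or tissue content in the length pattern was not tested.

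**Figure D5:**
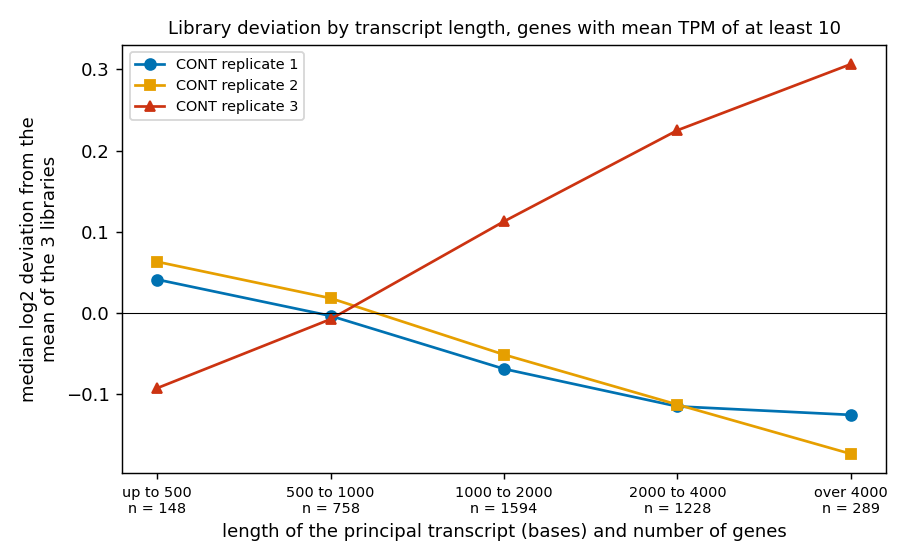
Median log2 deviation of each CONT library from the mean of the 3 libraries, for nuclear protein-coding genes of at least 10 TPM in 5 bins of length. The bins are of effective length averaged over the 3 libraries, although the axis label names the principal transcript. Replicate 3 goes from below 0 for effective lengths up to 500 bases to 0.31 above 4000 bases, while replicates 1 and 2 run close together in the opposite direction.

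The 15 genes with the widest spread among nuclear protein-coding genes of at least 10 TPM fell into a few groups. The atrial genes Myl7, Sln, Mybphl, Myl4, Dkk3 and Nppa made up 6 of the first 7, with Mybphl, a myosin-binding protein of atria and conduction tissue, at 1.05, 0.05 and 38.7 TPM and Dkk3, a secreted protein, at 1.19, 0.39 and 31.5 TPM. The globins Hba-a1, Hbb-bs, Hbb-bt and Hba-a2 followed, with ratios between 5.29 and 5.94. Scd1, the stearoyl-CoA desaturase of lipid synthesis, stood at 4.5, 1.92 and 27.8 TPM. Fasn, the fatty acid synthase, stood at 7.53, 6 and 28.4 TPM. Both were highest in replicate 3, as the adipocyte markers were. The others were Ifi205 (4.7, 4.23 and 21.2 TPM), Arrdc2 (14.1, 3.15 and 15.3 TPM) and Cish, an inhibitor of cytokine signalling (7.72, 8.56 and 35.8 TPM). Ifi205, which was not in the interferon list, was highest in replicate 3, unlike the sum of that list. Arrdc2 was low in replicate 2 and alike in replicates 1 and 3.

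Among the 10 genes with the narrowest spread, all within 1.01-fold over the 3 libraries, were Cfdp1, Elof1, Jtb, Vamp8, Rps15a, Cdc42, Actn2, Csnk2b and Safb. Rps15a, a protein of the small ribosomal subunit, stood at 314, 312 and 314 TPM. Cdc42, a small GTPase of the cytoskeleton, stood at 43.3, 42.95 and 43.1 TPM, and Csnk2b, the regulatory subunit of casein kinase 2, at 76.3, 76.6 and 77.1 TPM. Elof1, a transcription elongation factor, was at 14.4, 14.3 and 14.3 TPM. Gapdh, often used as a reference transcript, was at 915, 931 and 957 TPM.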

How the data were processed

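The submitters' processing notes name STAR 2.7.0f, RSEM 1.2.31 and the build mm10. The sources used here do not state the annotation release, any filter or whether strand was used. The authors deposited expected counts of all libraries in 1 table, and TPM and FPKM per library. The deposited FPKM served to check that TPM is its rescaled form and to recover effective lengths. RSEM divides reads among genes with shared sequence, so values of near-identical copies are uncertain. Groups came from the labels, and replicate numbers follow accession order.

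Means, SDs and shares were computed from TPM with pandas 2.3.3. Ratios used a pseudocount of 0.1 TPM and detection a mean of at least 1 TPM. Effective lengths were recovered from counts and FPKM. Gene classes, transcript lengths and sequences came from GENCODE vM21, in which 55394 of 55487 identifiers were found. The common biological coefficient of variation was estimated with edgeR 4.0.16 (TMM factors, expected counts rounded to whole numbers), with DESeq2 1.42.0 size factors as an alternative, and the script was tested on simulated data. Shared sequence was measured as 75-base words of the principal transcript.

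The named genes are the 20 most abundant nuclear protein-coding genes, the mitochondrial protein genes, the 3 leading members of each of 52 lists and members at 0, all members of 30 pairs, and the 15 widest and 10 narrowest spreads at 10 TPM or more. Further list members were named as examples after their values were seen. The members, lists and pairs were chosen with earlier results of these data known. A few genes that the naming rule selects are not reported here.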

Additional observations from a re-analysis of the deposited data

How the results depend on the processing

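Detected genes numbered between 11251 and 13801 under the other rules and scalings and 11882 to 12113 when 1 library was left out, but 6760 at a mean of at least 5 TPM. The mitochondrial share of TPM was 30.8% of expected counts, 58.6% after merging the chromosome 1 copies, and 35.5% to 36.5% when 1 library was left out. The 10 most abundant genes held 48.6 ± 1.70% of TPM, 48.2% to 49.5% without 1 library, 38.7% of counts, 52.8% with copies merged and 53.0% at the principal transcript length. Their share was 45.7% after genes of the mitochondrial genome were removed. The chromosome 1 copies stayed in that setting, so it is not a share of nuclear transcripts alone. Genes over 2-fold numbered 972, and 554 with a pseudocount of 1, 184 of 4245 at a mean of at least 10 TPM, 4725 of 26793 over all genes above 0, and 244 to 670 when 1 library was left out, the lowest without CONT replicate 3. The common biological coefficient of variation ranged from 0.112 to 0.218 when 1 library was left out, again lowest without CONT replicate 3, and was 0.222 with no filter on low counts. The count of pairs with the first gene higher in every library stayed between 27 and 29. Among single pairs, Hk2 over Hk1 turned to -0.14 at the principal transcript length and Kcnj2 over Kcnj12 ranged from -0.039 to 0.79 when 1 library was left out, lowest without CONT replicate 2; the cause was not tested. Pairs with an atrial partner rested on CONT replicate 3: without it the log2 ratios were 11.23 for Myl2 over Myl7, 9.65 for Myl3 over Myl4 and 12.003 for Pln over Sln. The class share of natriuretic peptides and other secreted products was 0.0794% of TPM and 0.0533% without CONT replicate 3. Shares of counts moved 28 of the 31 class shares by more than their SD. No paired analysis was possible because a single group was described and its replicate numbers follow accession order. The merging of copies, the principal transcript length and the restriction to nuclear coding genes were chosen after seeing the data.

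Depth limits genes near 1 TPM, where an expected count rests on few reads. The 3 libraries limit every SD, and 1 of them differs by effective length and atrial markers. Gene length choices move ranks of long genes such as Myh6.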
